A study of Mus musculus with 10 samples.

Results

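A group of 10 negative feedback regulators of the RAS-ERK pathway were followed through myeloid cells with and without the phosphatase SHP-2. They were 6 dual-specificity phosphatases (Dusp1, Dusp2, Dusp4, Dusp5, Dusp6 and Dusp7), 2 Sprouty genes (Spry1 and Spry2) and 2 Spred genes (Spred1 and Spred2). They were chosen by name, as known feedback regulators of this pathway, and with earlier results of these data known. They make up 10 of the 55421 genes of the count table. All 10 were found and all 10 passed the filter on low counts in every comparison.

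Myeloid cells were collected for RNA-seq on day 15 from mice that carried MC17-51 fibrosarcomas. There were 10 samples in 4 groups: GR1+ myeloid-derived suppressor cells (MDSC) of the spleen from Shp2f/f mice (n = 2) and Shp2f/fLysMcre mice (n = 2), and tumor-associated macrophages (TAM) from Shp2f/f mice (n = 3) and Shp2f/fLysMcre mice (n = 3). Both genotypes carried floxed alleles of Ptpn11, the gene of SHP-2, and the Shp2f/fLysMcre mice also carried Cre recombinase driven by the lysozyme M promoter, which is active in monocytes, macrophages and neutrophils. The MDSC were isolated with magnetic beads and the TAM were taken from the same mice by cell sorting as CD45+CD11b+F4/80+Ly6G- cells, so tissue, isolation and cell type cannot be told apart. Which MDSC and TAM samples share a mouse, and how many mice a sample held, are not given, so p-values measure the spread between these samples, which may be technical.

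Signals from growth factor and cytokine receptors reach ERK through RAS, RAF and MEK, and SHP-2 is known to promote this route upstream of RAS. Active ERK induces genes that switch it off again. Dual-specificity phosphatases remove phosphates from ERK and, for some members, from the stress kinases JNK and p38. Sprouty proteins act between the receptor and RAF, and Spred proteins bring the RAS inhibitor neurofibromin to the membrane. The levels of these transcripts are therefore widely read in tumor and myeloid biology beside those of the pathway itself, although they are also induced by other signals.

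Depth ranged from 33262119 to 36541823 assigned reads in the MDSC samples and from 28844660 to 38222998 in the TAM samples. Levels are given as CPM, the count scaled to library size, with the TMM method of edgeR applied to all 10 samples together. Dusp1, Dusp5 and Spry1 share exonic bases with genes of the opposite strand, and the strand setting of the counting was not given. Ptpn11 itself stood at 121, 125 and 121 CPM in Shp2f/f TAM and at 50.9, 54.2 and 53.9 CPM in Shp2f/fLysMcre TAM, and in MDSC at 113 and 99.2 CPM against 94.8 and 79.7 CPM. The groups did not overlap in either cell type, as was so for 57.9% of all genes in TAM and 48.9% in MDSC. The mean of Ptpn11 went from 122 to 53.0 CPM in TAM, but from 106 to 87.3 CPM in MDSC, a much smaller fall. Counts over the whole gene do not show how many cells carried the deletion. Below, deleted names the genotype of the mice in both cell types. The TAM libraries carried macrophage markers, with Mrc1 at 2319 to 2409 CPM in the Shp2f/f group and 17.4 to 19.7 CPM in Shp2f/f MDSC. Other macrophage genes separated the cell types less. Adgre1, the gene of the sorted marker F4/80, stood at 636 to 679 CPM in Shp2f/f TAM and 378 to 383 CPM in Shp2f/f MDSC. Csf1r stood at 1426 to 1504 and 1419.7 to 1442 CPM in the same groups. The MDSC libraries, which the paper describes as polymorphonuclear MDSC (GR1hiLy6G+Ly6C-), were less clear-cut. Ly6g, the defining surface marker of the neutrophil-like fraction, reached only 8.92 to 11.9 CPM in the Shp2f/f group. The monocyte receptor gene Ccr2 stood at 1904 to 1964 CPM there, and S100a8 at 3261 to 3401 CPM. In the Shp2f/fLysMcre group Ly6g stood at 29.8 to 33.2 CPM, Ccr2 at 1209 to 1483 CPM and S100a8 at 7451 to 9038 CPM. Replicate 2 of the Shp2f/fLysMcre MDSC stood apart from replicate 1 in a list of 6 fibroblast and sarcoma genes. Their summed level, as CPM of the total count, was 506 in replicate 2 and 17.2 in replicate 1. The same list summed to 9.98 to 28.2 in Shp2f/f MDSC, 237 to 239.6 in Shp2f/f TAM and 206 to 215 in Shp2f/fLysMcre TAM. Its part in the member differences was not tested. Sums over other marker lists are on the same total-count scale. The log2 differences of Dusp1, Dusp2, Spry1, Spred1 and Spred2 in MDSC are therefore also given without replicate 2 of the Shp2f/fLysMcre group. Those of the other members and of the list genes in MDSC are given only with that library.

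The sequence just upstream of each start is shown for 4 genes, because Dusp1 and Dusp5 were the only ones of 9 members searched that held a motif of a stimulus-responsive factor, and Dusp6 and Spry1 are ERK-linked members that differed strongly between genotypes in opposite directions. Stretches were taken from RefSeq promoters (GRCm38.p6) and cut where an annotated exon of the gene begins within the window. The Dusp1 stretch lies inside the span of the longest gene model, whose far end is given with the gene's coordinates. The window searched ran from 250 bases before to 50 after the start, on both strands, and Dusp4 had no entry. Capitals mark a full cAMP response element (TGACGTCA) in Dusp1, 143 to 136 bases before its start on the minus strand (chr17:26508520-26508722), and 2 adjoining CArG boxes, the site of serum response factor, in Dusp5, 82 to 63 bases before its start on the plus strand (chr19:53528895-53529108). The stretches of Dusp6 (chr10:99262981-99263230, plus strand) and Spry1 (chr3:37639697-37639946, plus strand) held none of the letters searched.
Dusp1: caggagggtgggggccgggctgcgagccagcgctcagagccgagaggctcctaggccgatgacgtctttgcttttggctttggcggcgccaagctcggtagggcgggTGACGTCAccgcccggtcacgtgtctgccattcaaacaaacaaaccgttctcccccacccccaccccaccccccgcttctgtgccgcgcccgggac
Dusp5: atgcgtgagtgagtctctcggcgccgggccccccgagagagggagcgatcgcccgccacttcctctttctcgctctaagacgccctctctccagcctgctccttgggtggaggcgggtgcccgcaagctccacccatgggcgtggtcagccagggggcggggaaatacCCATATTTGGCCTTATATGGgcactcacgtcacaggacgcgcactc
Dusp6: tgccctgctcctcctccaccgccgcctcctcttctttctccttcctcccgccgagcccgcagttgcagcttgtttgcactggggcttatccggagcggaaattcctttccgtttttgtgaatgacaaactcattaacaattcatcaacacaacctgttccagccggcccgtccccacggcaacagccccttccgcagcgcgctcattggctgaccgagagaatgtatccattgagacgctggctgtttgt
Spry1: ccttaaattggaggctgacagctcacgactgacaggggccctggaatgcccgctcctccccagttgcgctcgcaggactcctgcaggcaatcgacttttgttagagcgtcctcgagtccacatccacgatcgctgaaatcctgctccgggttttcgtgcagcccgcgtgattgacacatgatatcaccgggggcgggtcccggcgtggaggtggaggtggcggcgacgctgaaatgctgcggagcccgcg
Among 32851 promoters of the same length, 1.79% held TGACGTCA and 1.63% a CArG box. The AP-1 letters TGANTCA were in 7.81% of promoters and the ETS letters CCGGAAGT in 3.89%, and neither was in any of the 9 member windows. These matches describe letters in a window and were not tested as sites.

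In TAM the 10 regulators did not move as a block. With SHP-2 deleted, Dusp1, Dusp2, Dusp5 and Dusp6 were higher, Dusp4, Spry1, Spred1 and Spred2 were lower, and Dusp7 and Spry2 did not pass the test. The largest rises were those of Dusp1 (2.18-fold) and Dusp6 (1.90-fold), and the largest fall was that of Spry1 (2.22-fold). Thus 8 of 10 members were called at an adjusted p under 0.05 by the edgeR quasi-likelihood test, beside 50.2% of the 14446 genes tested. By direction, 4 of 10 were called higher, beside 23.9% of all genes, and 4 were called lower, beside 26.3%. The median log2 difference of the members was 0.10 against -0.01 over all genes, and the median size without regard to sign was 0.37 against 0.24. The 2 genotypes did not overlap for any of the 10 members, where 57.9% of all genes did not overlap.

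**Figure D1:**
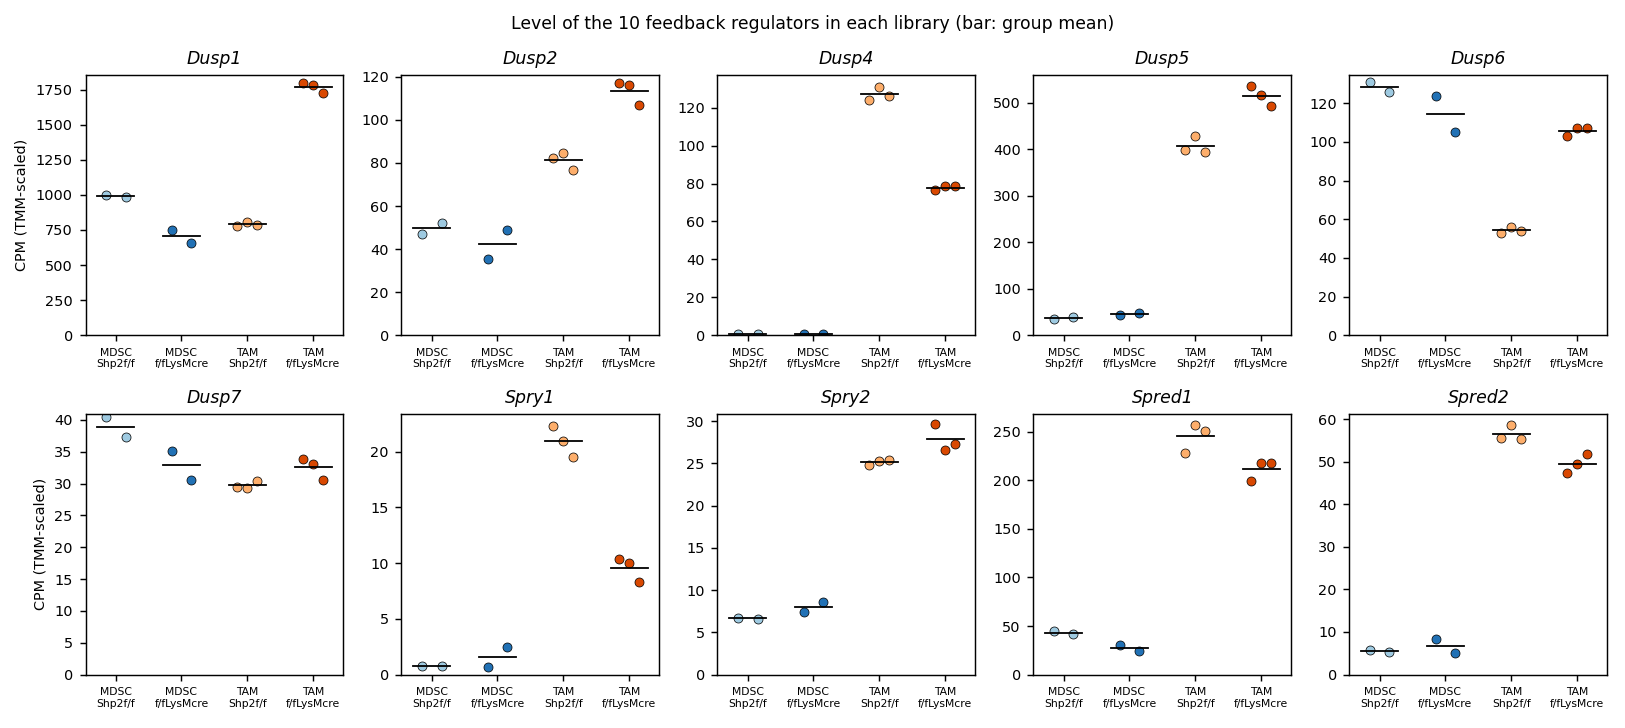
Level of each regulator in each library, in CPM after TMM scaling (linear axis from 0), with points for libraries and a bar for the group mean (n = 2, 2, 3 and 3). Dusp1 in Shp2f/fLysMcre TAM lies between 1722 and 1799.9 CPM, above every other library, while Dusp4 and Spry1 in TAM fall from 124 to 131 and from 19.5 to 22.3 CPM to 76.4 to 78.7 and 8.31 to 10.4 CPM.

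Dusp1 (ENSMUSG00000024190, chr17:26505590-26562128, minus strand) encodes a nuclear phosphatase that acts on p38 and JNK as well as ERK and is an immediate-early gene. It stood at 780.3, 807 and 784 CPM in Shp2f/f TAM and at 1799.9, 1784 and 1722 CPM in Shp2f/fLysMcre TAM. All deleted libraries were far above all control libraries, and the log2 difference was 1.13 (SE 0.0313, edgeR adjusted p = 2.20e-09). Dusp2 (ENSMUSG00000027368, chr2:127336159-127338376, plus strand), a nuclear phosphatase typical of activated leukocytes, stood at 82.3, 84.7 and 76.7 CPM against 117, 116 and 107 CPM. The deleted libraries were all higher, by 0.44 on the log2 scale (SE 0.0454, edgeR adjusted p = 1.23e-05).

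Dusp5 and Dusp4 are nuclear phosphatases with opposite directions here. Dusp5 (ENSMUSG00000034765, chr19:53529109-53542431, plus strand) is specific for ERK, and it stood at 399, 428 and 395 CPM in the controls and 536, 516 and 494 CPM after deletion. The gap between the groups was wider than the spread within either, with a log2 difference of 0.30 (SE 0.0430, edgeR adjusted p = 0.000142). Dusp4 (ENSMUSG00000031530, chr8:34807297-34819894, plus strand), which acts on ERK and JNK, stood at 124, 131 and 126 CPM in the controls and 76.4, 78.7 and 78.5 CPM after deletion. All deleted libraries were low and close together, and the gene fell by 0.74 on the log2 scale (SE 0.0364, edgeR adjusted p = 6.37e-08).

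Dusp6 and Dusp7 encode cytoplasmic phosphatases specific for ERK, and Dusp6 is commonly used as a readout of ERK output. Dusp6 (ENSMUSG00000019960, chr10:99263231-99267489, plus strand) stood at 52.9, 56.2 and 54.1 CPM in Shp2f/f TAM and at 103, 107 and 107 CPM in Shp2f/fLysMcre TAM. The groups lay far apart, with a log2 difference of 0.92 (SE 0.0386, edgeR adjusted p = 2.08e-08). Its relative Dusp7 (ENSMUSG00000053716, chr9:106368632-106375724, plus strand) stood at 29.4, 29.3 and 30.4 CPM against 33.9, 33.1 and 30.6 CPM. The lowest deleted library was only just above the highest control, and the log2 difference of 0.10 (SE 0.050) did not pass the test (edgeR adjusted p = 0.125).

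Among the Sprouty genes, only Spry1 passed the test in TAM. Spry1 (ENSMUSG00000037211, chr3:37639947-37644598, plus strand) stood at 22.3, 20.9 and 19.5 CPM in the controls and at 10.4, 10 and 8.31 CPM after deletion. The deleted libraries lay below every control library, with a log2 difference of -1.15 (SE 0.0838, edgeR adjusted p = 9.06e-07). Spry2 (ENSMUSG00000022114, chr14:105891947-105896819, minus strand) stood at 24.8, 25.3 and 25.4 CPM against 29.7, 26.6 and 27.3 CPM. Its log2 difference of 0.11 (SE 0.0529) did not pass (edgeR adjusted p = 0.110), although the groups did not overlap.

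Both Spred genes were lower in TAM with SHP-2 deleted, by smaller amounts than Spry1 or Dusp4. Spred1 (ENSMUSG00000027351, chr2:117121374-117182279, plus strand) stood at 228, 257 and 251 CPM against 199.5, 218 and 218 CPM. The groups were separate but spread widely within themselves, and Spred1 fell by 0.25 on the log2 scale (SE 0.0526, edgeR adjusted p = 0.00245). Spred2 (ENSMUSG00000045671, chr11:19924375-20024026, plus strand) stood at 55.6, 58.6 and 55.3 CPM against 47.4, 49.4 and 51.9 CPM, and fell by 0.23 (SE 0.0471, edgeR adjusted p = 0.00211). Neither Spred call was kept when all 10 samples shared a single estimate of the spread (edgeR adjusted p = 0.0910 for Spred1 and 0.295 for Spred2).

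A measured shift in another gene list ran beside the rises of Dusp1, Dusp2, Dusp5 and Dusp6. A list of 9 transcripts that respond to cell handling, which includes Fos, Fosb, Jun and Junb, rose in 9 of 9 genes in TAM, with a median log2 difference of 1.03. Its summed level, as CPM of the total count, was 6418 to 6581 in Shp2f/f TAM and 10871 to 11166 in Shp2f/fLysMcre TAM. In MDSC 0 of the 9 genes passed the test in either direction, with sums of 5324 to 5461 and 4565 to 5456. The macrophage list rose in 9 of 9 genes in TAM (sums of 9601 to 9888 and 13063 to 13520.4), and the proliferation list fell in 6 of 6 (669 to 676 and 326 to 339.6). All 5 T cell genes fell (sums of 6.67 to 7.93 and 2.96 to 3.68). The neutrophil list had 5 genes higher and 1 lower of 7 tested, while its sum went from 4354 to 4579 down to 2286 to 2341. Most of that sum was Mmp9, at 3979 to 4258 and 1946 to 2051 CPM after TMM scaling. Mmp9 was far lower in Shp2f/f MDSC (121 to 169 CPM), so the fall of the sum does not measure neutrophils. S100a8 went from 52.0 to 59.8 up to 75.9 to 85.6 CPM in TAM. Pancreas genes summed to 855 to 6692 CPM in the 3 Shp2f/f TAM libraries and 18.7 to 87.2 CPM in the deleted ones. Their part in the member differences was not tested. In bulk samples, more cells with a transcript and more transcript per cell cannot be told apart.

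In MDSC none of the 10 regulators passed the test. The edgeR quasi-likelihood test called 0 of 10 members, beside 4.28% of the 14806 genes tested. By direction, 0 were higher, beside 3.76% of all genes, and 0 were lower, beside 0.520%. At an unadjusted p under 0.05 there were 2 of 10, beside 19.3% of all genes. DESeq2 called 2 of 10, Dusp1 and Spred1, both lower, where it called 2.07% of all genes lower and 6.94% higher. Without replicate 2 of the Shp2f/fLysMcre group edgeR called 3 lower (Dusp1, Dusp2 and Spred1) and 1 higher (Spred2), beside 5.34% and 12.7% of all genes. Without replicate 1 of that group it called 4 lower (Dusp1, Dusp6, Dusp7 and Spred1) and 1 higher (Spry1), beside 10.9% and 16.3%. The groups did not overlap for 7 of 10 members, where 48.9% of all genes did not overlap. With 2 samples a group the intervals were wide, and the standard errors of the member differences ran from 0.119 for Dusp5 to 0.613 for Spry1, beside 0.0313 to 0.0838 in TAM.

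**Figure D2:**
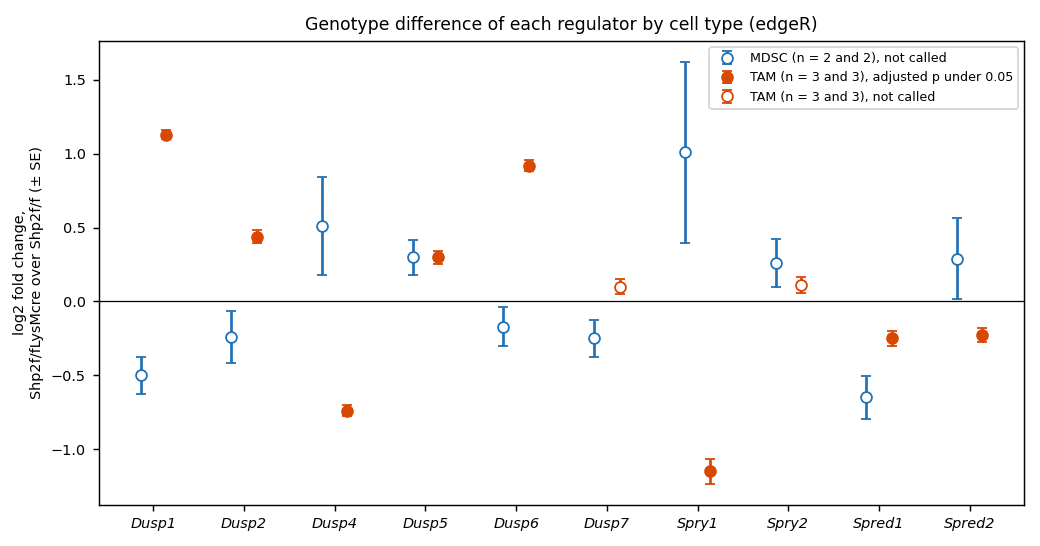
Log2 fold change of each regulator between genotypes (Shp2f/fLysMcre over Shp2f/f) in MDSC (blue, n = 2 and 2) and TAM (orange, n = 3 and 3), with bars for the SE and filled points for an adjusted p under 0.05. Dusp1, Dusp2, Dusp6 and Dusp7 lie on opposite sides of 0 in the 2 cell types, at 1.13, 0.44, 0.92 and 0.10 in TAM and -0.50, -0.24, -0.17 and -0.25 in MDSC.

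The nuclear phosphatase Dusp1 stood at 1001 and 987 CPM in Shp2f/f MDSC and at 748 and 659.9 CPM in Shp2f/fLysMcre MDSC. Both deleted libraries were below both controls, and the log2 difference of -0.50 (SE 0.127) missed the threshold (edgeR adjusted p = 0.105, and DESeq2 adjusted p = 0.00576). Spred1 stood at 44.6 and 41.4 CPM against 30.5 and 24.6 CPM, without overlap, with a log2 difference of -0.65 (SE 0.147, edgeR adjusted p = 0.0845, and DESeq2 adjusted p = 0.0107). Without replicate 2 of the Shp2f/fLysMcre group, the library that stood apart, edgeR called both (log2 differences of -0.41 and -0.49, adjusted p = 0.0220 and 0.00383).

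The other ERK phosphatases of MDSC are given in the same way. Dusp6 stood at 131 and 126 CPM against 124 and 105 CPM, with a log2 difference of -0.17 (SE 0.131, edgeR adjusted p = 0.568). Dusp5 stood at 34.8 and 39.1 CPM against 43.0 and 48.0 CPM, a log2 difference of 0.30 (SE 0.119, edgeR adjusted p = 0.262). For both genes the groups were separate in these libraries while the test was not passed. Dusp7 stood at 40.4 and 37.3 CPM against 35.1 and 30.6 CPM, with a log2 difference of -0.25 (SE 0.127, edgeR adjusted p = 0.373). Dusp2 stood at 46.9 and 52.3 CPM against 35.3 and 49.0 CPM, with overlap between the groups and a log2 difference of -0.24 (SE 0.174, edgeR adjusted p = 0.542). Without replicate 2 of the Shp2f/fLysMcre group the difference of Dusp2 was -0.49 (SE 0.121, edgeR adjusted p = 0.00400), and without replicate 1 it was -0.06.

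Dusp4 and Spry1 were barely detected in the splenic cells. Dusp4 had 20 and 17 counts in the controls and 27 and 32 counts after deletion, which is 0.581 and 0.491 CPM against 0.732 and 0.802 CPM. Its log2 difference of 0.51 had an SE of 0.332 (edgeR adjusted p = 0.494). Spry1 had 25 and 28 counts against 25 and 97 counts, and its log2 difference of 1.01 (SE 0.613, edgeR adjusted p = 0.461) was -0.17 without replicate 2 of the Shp2f/fLysMcre group, the library with 97 counts, and 1.62 without replicate 1 (edgeR adjusted p = 0.00997). Spry2 stood at 6.74 and 6.58 CPM against 7.43 and 8.57 CPM (log2 difference 0.26, SE 0.164, edgeR adjusted p = 0.487). Spred2 stood at 5.75 and 5.20 CPM against 8.29 and 5.16 CPM, with overlap, and its log2 difference of 0.29 (SE 0.274, edgeR adjusted p = 0.653) was -0.13 without replicate 1 and 0.60 without replicate 2 of the deleted group. All 6 proliferation genes were called higher in these MDSC (summed level 461 to 501 CPM in the controls and 969 to 1104 CPM after deletion). The neutrophil list had 8 of 8 differences positive and 3 called higher, with sums of 8647 to 8801 CPM and 20501 to 23051 CPM. The monocyte list had 0 of 4 genes called in either direction, with sums of 4189 to 4432 CPM and 3137 to 3873 CPM. The erythroid list had 6 of 6 differences positive and 4 called higher, with sums of 189.9 to 217 CPM and 347 to 523 CPM. Their part in the member values was not tested.

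The difference between the genotype effects of the 2 cell types was tested as such, in a single fit of all 10 samples. That fit takes the samples as independent, although MDSC and TAM came from the same mice. It also gives both cell types a single estimate of the spread, which understates that between the MDSC samples. Every alternative setting of this fit does the same, so a call kept in those settings does not test this. The effect in TAM minus that in MDSC passed for 7 of 10 members, beside 24.9% of the 16581 genes tested. It was positive and called for Dusp1, Dusp2, Dusp6, Dusp7 and Spred1 (5 of 10, beside 12.2% of all genes), and negative and called for Dusp4 and Spry1 (2 of 10, beside 12.7%). Dusp1 differed most clearly, by 1.66 on the log2 scale (SE 0.0930, edgeR adjusted p = 9.23e-06), and Dusp6 by 1.13 (SE 0.102, edgeR adjusted p = 5.82e-05). Dusp4 differed by -1.22 (SE 0.162, edgeR adjusted p = 0.000764). These 3 genes were called in all 17 alternative settings. Without replicate 2 of the Shp2f/fLysMcre MDSC, 3 members were called positive, beside 13.2% of all genes, and 2 negative, beside 12.1%, with Spred2 (-0.79, edgeR adjusted p = 0.000589) in place of Spry1.

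For the other members the call of a difference was less firm. Spry1 gave -2.15 (SE 0.542, edgeR adjusted p = 0.0174), and -0.94 without the Shp2f/fLysMcre MDSC library that stood apart, where it was not called (edgeR adjusted p = 0.0797). Its call was also lost without replicate 1 (-2.07, edgeR adjusted p = 0.0861) or replicate 2 (-2.20, edgeR adjusted p = 0.0719) of the Shp2f/f MDSC. Dusp2 gave 0.71 (SE 0.170, edgeR adjusted p = 0.0136) and was not called under scaling by total counts (0.53, adjusted p = 0.0639) or without replicate 2 of the Shp2f/f MDSC (0.66, adjusted p = 0.0552). Dusp7 gave 0.38 (SE 0.110, edgeR adjusted p = 0.0330) and Spred1 gave 0.43 (SE 0.136, edgeR adjusted p = 0.0445), and each lost its call in 9 of 17 alternative settings. Dusp5 rose by the same 0.30 in TAM as the value measured in MDSC, and the difference was 0.04 (SE 0.109, edgeR adjusted p = 0.856). Neither Spry2 (-0.12, SE 0.118, edgeR adjusted p = 0.504) nor Spred2 (-0.48, SE 0.219, edgeR adjusted p = 0.139) passed.

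With SHP-2 intact, spleen MDSC and TAM held the members at different levels. All 10 members differed between the Shp2f/f samples of the cell types by the edgeR quasi-likelihood test, beside 78.8% of the 15659 genes tested, and none overlapped, beside 86.0% of all genes. TAM were higher in 7, beside 40.0% of all genes, and lower in 3, beside 38.8%. The median size of the member differences was 2.21 on the log2 scale, against 0.73 over all genes. Dusp4 was the extreme, at 7.88 (SE 0.0914, edgeR adjusted p = 9.03e-12), which is 235-fold, followed by Spry1 at 4.76 (SE 0.126, edgeR adjusted p = 7.53e-10), Dusp5 at 3.46 (SE 0.0683, edgeR adjusted p = 1.13e-10) and Spred2 at 3.36 (SE 0.0724, edgeR adjusted p = 1.86e-10). Spred1 (2.51), Spry2 (1.92) and Dusp2 (0.71) were also higher in TAM. Dusp6 was lower in TAM, at -1.24 (SE 0.0452, edgeR adjusted p = 6.50e-09), and so were Dusp7 (-0.39) and Dusp1 (-0.33).

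**Figure D3:**
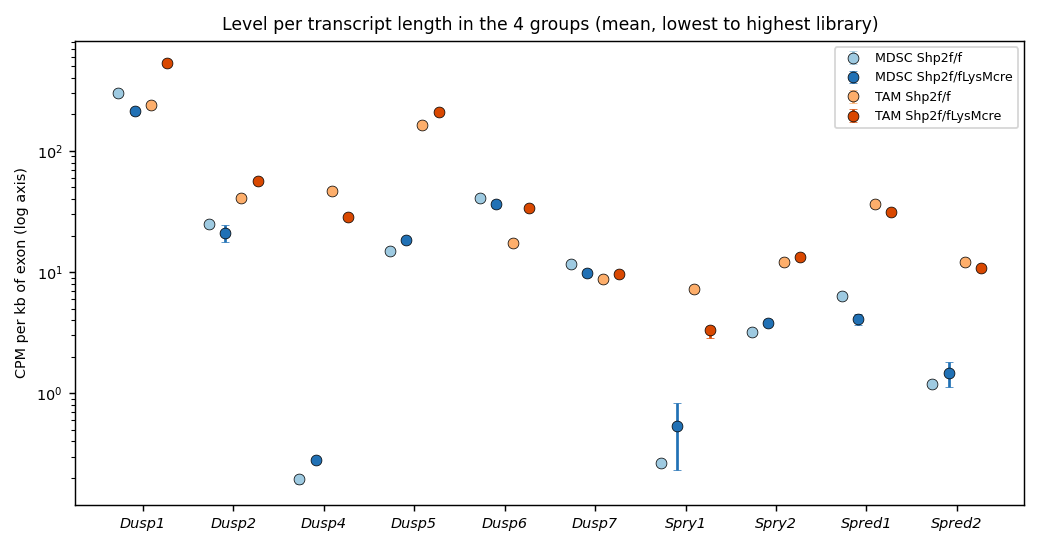
Level of each regulator per kilobase of annotated exon (CPM per kb, log axis) in the 4 groups, as the group mean with bars from the lowest to the highest library. Dusp1 is the highest member in every group, at 300.2, 213, 239 and 534 CPM per kb, while Dusp5 ranges from 14.9 in Shp2f/f MDSC to 208 in Shp2f/fLysMcre TAM.

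Per kilobase of exon, Dusp1 was the most abundant member in every group, at a mean of 300.2 CPM per kb in Shp2f/f MDSC, 213 in Shp2f/fLysMcre MDSC, 239 in Shp2f/f TAM and 534 in Shp2f/fLysMcre TAM. In Shp2f/f MDSC it was followed by Dusp6 (41.1), Dusp2 (24.8), Dusp5 (14.9) and Dusp7 (11.6), with Spry1 (0.264) and Dusp4 (0.196) last. Shp2f/f TAM had Dusp5 in second place (165), then Dusp4 (46.3), Dusp2 (40.6) and Spred1 (36.2), and Spry1 last (7.19). No neighbours in these orders overlapped in range, apart from Spred2 and Spry2 in Shp2f/f TAM (12.2 and 12.1). In Shp2f/fLysMcre TAM the order ran Dusp1, Dusp5 (208), Dusp2 (56.5), Dusp6 (33.8), Spred1 (31.3) and then Dusp4 (28.4), with no overlap between neighbours. Dusp4 thus stood in the third place in control TAM and in the sixth after deletion. In Shp2f/fLysMcre MDSC the neighbours Dusp2 and Dusp5, Spred1 and Spry2, and Spry1 and Dusp4 overlapped.

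The make-up of the phosphatase pool followed these levels. Of the summed per-kilobase level of the 6 Dusp genes, Dusp1 took 76.1 to 76.8% in Shp2f/f MDSC and 69.6 to 72.6% in Shp2f/fLysMcre MDSC, and 45.7 to 46.7% and 61.1 to 61.5% in the corresponding TAM. The share of Dusp5 was 3.57 to 4.03% in Shp2f/f MDSC, 31.5 to 32.4% in Shp2f/f TAM and 23.6 to 24.4% in Shp2f/fLysMcre TAM. Dusp4 took 8.86 to 9.10% in control TAM and 3.13 to 3.39% after deletion. The cytoplasmic pair Dusp6 and Dusp7 took 13.1 to 13.7% in Shp2f/f MDSC but 4.99 to 5.19% in Shp2f/f TAM, and 4.83 to 5.13% in Shp2f/fLysMcre TAM, where Dusp1 and Dusp6 had both risen. The total over the 6 genes was 391 to 394 CPM per kb in Shp2f/f MDSC, 286 to 311 in Shp2f/fLysMcre MDSC, 507 to 534 in Shp2f/f TAM and 845 to 889 in Shp2f/fLysMcre TAM.

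The pathway around these regulators was read from gene lists, each described by its counts. For these and the lists that follow, the shares over all genes tested in TAM were 23.9% called higher and 26.3% lower. In MDSC they were 3.76% and 0.520%. In TAM, the RAS-RAF-MEK-ERK cascade had 11 genes called higher and 2 lower of 19 tested (median log2 difference 0.11). Ksr1, a scaffold of the cascade, rose by 0.74 (SE 0.0825, edgeR adjusted p = 2.17e-05), and the RAS relative Mras fell by 0.58 (SE 0.108, edgeR adjusted p = 0.00102). RAS exchange factors, GTPase-activating proteins and adaptors had 12 higher and 2 lower of 21, led by the exchange factor Rasgrp2 (0.70) and the SHP-2-binding adaptors Gab3 (0.65) and Gab1 (0.47), while the GTPase-activating protein Rasal2 fell by 1.01 (SE 0.0837, edgeR adjusted p = 2.44e-06). Means in Shp2f/f and Shp2f/fLysMcre TAM were low for Ksr1 (4.96 and 8.53 CPM), Mras (6.06 and 4.17) and Rasgrp2 (3.39 and 5.67). In MDSC 0 of 20 genes of the cascade and 0 of 22 of the exchange factor list passed the test.

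Transcripts that ERK induces gave 15 higher and 5 lower of 23 tested in TAM, beside 23.9% and 26.3% of all genes. Their median log2 difference was 0.26. Fos (1.03, SE 0.0380, edgeR adjusted p = 8.61e-09), Fosb (0.91) and Ier3 (0.89) rose most. The D-type cyclin gene Ccnd1 fell by 0.69 (SE 0.0353, edgeR adjusted p = 8.18e-08), with Epha2 (-0.45) and Egr3 (-0.41) also lower. Of these, Fos, Fosb and also Junb belong to the list of handling-responsive transcripts as well. In MDSC 1 of 23 was higher, Fosl1 at 1.45 (SE 0.261, edgeR adjusted p = 0.0463), with low means of 0.984 and 2.71 CPM. The 1 lower gene was Emp1, at -1.22 (SE 0.127, edgeR adjusted p = 0.0183).

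**Figure D4:**
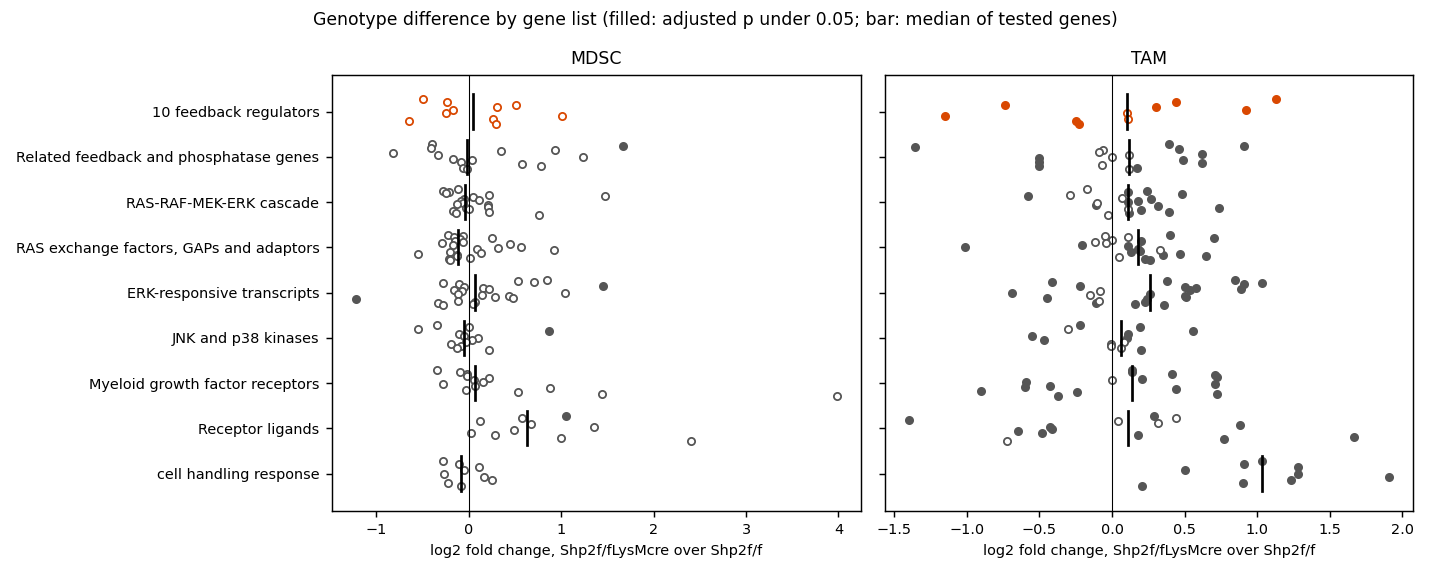
Log2 fold change between genotypes (Shp2f/fLysMcre over Shp2f/f) for every tested gene of the members and of 8 lists in MDSC (left) and TAM (right), with filled points for an adjusted p under 0.05 and a bar for the list's median. In TAM the member median is 0.10, that of ERK-responsive transcripts 0.26 and that of the handling list 1.03, while in MDSC 0 of the 10 members and 0 of the 9 handling genes are filled.

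A list of related feedback and phosphatase genes, which includes phosphatases of kinases other than ERK, also split. In TAM 7 were higher and 4 lower of 17 tested. Dusp8, which targets JNK and p38, rose by 0.91 (SE 0.0710, edgeR adjusted p = 1.54e-06), and Dusp18 and the G-protein regulator gene Rgs2 each rose by 0.62. Dusp9, the third cytoplasmic ERK phosphatase beside Dusp6 and Dusp7, fell by 1.36 (SE 0.060, edgeR adjusted p = 3.07e-08), in the opposite direction to Dusp6. Spry4 and Pebp1, the gene of an inhibitor of RAF, each fell by 0.50, and Spry4 had low means of 3.63 and 2.62 CPM. In MDSC 1 of 15 was called, Dusp8 at 1.67 (SE 0.266, edgeR adjusted p = 0.0345), with low means of 0.941 and 3.02 CPM. The JNK and p38 kinases gave 5 higher and 3 lower of 13 in TAM. Mapk13 gave 0.56 with low means of 2.12 and 3.21 CPM, and Map2k3, a kinase of p38, gave -0.55. In MDSC 1 of 13 was called, Mapk13 at 0.87 (SE 0.132, edgeR adjusted p = 0.0318).

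Receptors and ligands upstream of RAS were described in the same way. Of 16 growth factor receptors, 9 were higher and 6 lower in TAM. Csf3r (0.72), Pdgfrb (0.72) and Csf2rb2 (0.71) rose most, and Egfr (-0.90), Met (-0.60) and Flt3 (-0.59) fell most. Pdgfrb (means of 3.82 and 6.43 CPM), Egfr (3.85 and 2.11) and Flt3 (2.64 and 1.80) had low levels. Pdgfrb is also in the fibroblast and sarcoma list. Of 14 ligands, 5 were higher and 5 lower. Igf1 rose by 1.67 (SE 0.0866, edgeR adjusted p = 8.69e-08), Areg by 0.88 and Gas6 by 0.77. Il34 fell by 1.40 (SE 0.189, edgeR adjusted p = 9.14e-05), Pdgfa by 0.65 and Pdgfb by 0.48. The level of Il34 was low (means of 2.37 and 0.917 CPM). In MDSC 0 of 14 receptors passed, and of 10 ligands only Csf1 did, at 1.05 (SE 0.174, edgeR adjusted p = 0.0372).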

How the data were processed

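Libraries of poly(A) RNA were made by the authors with a stranded kit and sequenced as paired-end 42-nt reads. The authors trimmed with Cutadapt 2.5, aligned to GRCm38 with STAR 2.7.3a and counted reads per Ensembl release 98 gene with featureCounts (Subread 1.6.2). The deposited counts were whole numbers and not normalized. Strand setting and treatment of multi-mapping reads were not given in the sources used here, so genes with antisense partners are uncertain: Dusp1 and Ergic1 share 11 exonic bases, Dusp5 and AC137853.2 share 547, and Spry1 and Gm42922 share 710, and the last 2 partners had at most 22 and 3 counts in a sample. A normalized table was also deposited and was not used.

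Tests used edgeR 4.0.16 under R 4.3.3 (filterByExpr with a minimum count of 10, TMM, quasi-likelihood F test, Benjamini-Hochberg adjustment over all genes tested, call at an adjusted p under 0.05). Each cell type was fitted alone, and the difference of effects was fitted over all 10 samples as independent. Gene models were GENCODE mouse release 21, which matched 99.67% of identifiers. Named genes were all members, Ptpn11 and, from each pathway list, up to 3 called genes with the largest rise and up to 3 with the largest fall among those averaging 1 CPM or more, plus markers that check a label or move with members and the 3 genes most correlated with Dusp6 and with Dusp1 (mean of at least 10 CPM). The members and lists were chosen with earlier results of these data known. Samples of a group differed by more than sampling noise (chi-square per degree of freedom of 4.46 to 58.1). Alternatives were DESeq2 1.42.0, other scalings, filters and fits, a replicate block and leaving out each sample. The script was tested on simulated data.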

Additional observations from a re-analysis of the deposited data

Results flagged for a closer look

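In 7 regulators the genotype effects of TAM and MDSC differed by a test of the difference itself (edgeR quasi-likelihood test of the interaction, adjusted over 16581 genes, of which 24.9% were called). On the log2 scale the effect in TAM minus that in MDSC was 1.66 for Dusp1, 0.71 for Dusp2, 1.13 for Dusp6, 0.38 for Dusp7 and 0.43 for Spred1, and it was -1.22 for Dusp4 and -2.15 for Spry1. The values for Dusp4 and Spry1 rest on 17 to 32 and on 25 to 97 counts per MDSC library. The test gives both cell types a single estimate of the spread, which understates the spread between the MDSC samples. Without replicate 2 of the Shp2f/fLysMcre MDSC, the library that stood apart, Spry1 gave -0.94 and was not called. Of 17 alternative settings, the call was lost in 9 for Dusp7, 9 for Spred1, 3 for Spry1 and 2 for Dusp2. No group was large enough for a test of single libraries.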

How the results depend on the processing

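The direction and call of the cell type difference held for all 10 members in every alternative run (130 of 130 values). For the genotype effect in TAM 137 of 140 member values held. A single fit of all 10 samples called 4837 genes in TAM against 7257, with 2 members lower against 4, and Dusp7 was called without replicate 3 of the Shp2f/fLysMcre TAM (0.14). In MDSC the 633 calls over all genes became 1256 with DESeq2, 130 without a filter, 2674 with the replicate block and 2666 in a single fit of all samples, and ran from 1 to 4406 when a sample was left out. The calls among members changed with them: DESeq2, the replicate block and the single fit each called 2 lower, the single fit also called 1 higher (Dusp5), and leaving out a sample gave 0 to 4 lower and 0 to 1 higher. In those fits the lone sample of a group is assumed to vary like the others. Leaving out either Shp2f/fLysMcre MDSC sample gave 4406 (replicate 1) and 2729 (replicate 2) calls, and leaving out either Shp2f/f sample gave 1. Called higher in MDSC were 556 genes, 968 with DESeq2, 122 without a filter, 1870 with the block and 1739 in the single fit, with 0 to 2638 when a sample was left out. Called lower were 77 genes, then 288, 8, 804 and 927, with 1 to 1768. In TAM 3805 genes were called lower, and 2229 in the single fit. In MDSC, Spred2 reversed without replicate 1 of the Shp2f/fLysMcre group (-0.13, with -0.13 to 0.60 over the samples left out) and Spry1 without replicate 2 (-0.17, with -0.17 to 1.62), and Dusp5 reversed in the difference of effects under scaling by total counts (-0.14), without replicate 2 of the Shp2f/f MDSC (-0.02) and without replicate 1 of the Shp2f/fLysMcre MDSC (-0.03), with -0.03 to 0.12 over the samples left out, and was called in none of these. For the difference of effects, 4132 genes became 2446 to 7023 when a sample was left out, with 1282 to 3490 higher and 1164 to 3533 lower, and members called higher became 2 to 5 and called lower 1 to 2. Scaling by total counts left 2 members called higher against 5 and 1234 genes called higher against 2030. It moved the median log2 difference of all genes to -0.11 in TAM and -0.18 in the difference of effects, and the share of calls that were higher from 47.6% to 30.9% and from 49.1% to 28.3%. In the difference of effects Spred2 was called under scaling by total counts (-0.65) and with the replicate block (-0.47). Same-numbered samples deviated together by 0.35 in MDSC and by -0.16, 0.05 and 0.02 in TAM. The labels give nothing that a number shares, so the numbers were not taken as pairs, and in MDSC, with 2 pairs, pairing cannot be settled. The block called Dusp1 (edgeR adjusted p = 0.0138) and Spred1 (7.36e-05) in MDSC and changed no TAM member call. The cause of these changes was not tested. Depth limits Dusp4 and Spry1 in MDSC, which the filter of 1 CPM removed.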

Other observations

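The genes whose level followed a member most closely over the 10 samples were found among 8849 genes averaging 10 CPM or more, as a description. For Dusp6 they were Scarb2 (Pearson r = 0.992), Mknk1 (0.990), the gene of a kinase that ERK and p38 activate, and Fbxl5 (0.990). For Dusp1 they were Acvrl1 (0.992), Rnd3 (0.991) and Stk40 (0.989). The 10 samples fall into 4 groups and share their scaling, and no p is given.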
